A study of Mus musculus with 27 samples.

Results

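Embryoid bodies grown for 11 days from H9 cells, mouse induced pluripotent stem cells reprogrammed with 3 transcription factors and called 3F, were compared with day 11 embryoid bodies from R1 mouse embryonic stem cells. The comparison used the 3 arrays labelled as differentiated H9 cells at day 11 and the 3 labelled as differentiated R1 cells at day 11, which are 6 of the 27 arrays of the series. The series also holds undifferentiated cells of both lines, their day 5 embryoid bodies, and the same days for 19BL cells, reprogrammed with 4 factors and called 4F, with 3 biological replicates in each of 9 groups. Undifferentiated cells were kept on feeder cells inactivated with mitomycin, with leukemia inhibitory factor. Embryoid bodies formed spontaneously in serum medium from which that factor was left out. Each kind of cell was represented by 1 line, so that the reprogramming with 3 factors and the H9 line cannot be told apart. The strain of neither line was given in the sources used here.

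Embryoid bodies are aggregates in which pluripotent cells, once released from leukemia inhibitory factor, form derivatives of all germ layers, with beating heart muscle, vessels, primitive red cells and macrophages among them. The first blood cells of the embryo arise in the yolk sac as nucleated red cells that carry embryonic globins, together with macrophages and megakaryocytes. Macrophages are known by the surface phosphatase CD45, the receptor for colony stimulating factor 1, complement C1q and Fc receptor signalling proteins. Genes such as Pou5f1, Nanog and Zfp42 mark the undifferentiated state and are turned down as the cells differentiate.

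Signals are log2 values, in which a step of 1 is a doubling, and each gene was represented by 1 probe set, the one with the brightest mean over all 27 arrays. A gene was called when its difference between the groups was at least 2-fold and its adjusted p in limma, a linear model fitted to all genes, was under 0.05. Of 18193 genes, 185 (1.02%) were called at day 11: 42 (0.231%) were higher in 3F embryoid bodies and 143 (0.786%) were lower. The median difference over all genes was -0.04. After quantile normalization of the deposited values the count was 200, of which 69 were higher and 131 lower, so that 34.5% of the calls were higher instead of 22.7%. The 2 groups did not overlap at 2084 genes (11.5%), of which 784 (4.31%) were higher in 3F and 1300 (7.15%) lower.

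**Figure D1:**
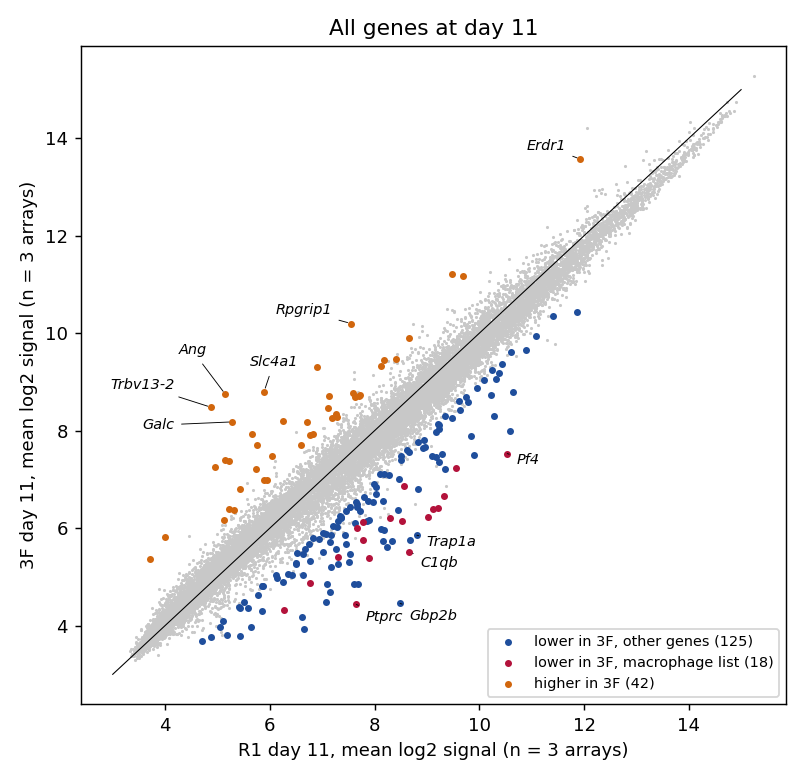
Mean log2 signal of each of the 18193 genes in R1 embryoid bodies at day 11 (horizontal axis, n = 3 arrays) against 3F embryoid bodies at day 11 (vertical axis, n = 3 arrays). Grey points were not called, coloured points are the 42 genes higher in 3F, 18 lower genes of the macrophage list and 125 other lower genes, and the line marks equal signal.

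The arrays within each group were not alike. Taken over all genes, pairs of 3F arrays differed with an SD of 0.514 to 0.702 on the log2 scale, and pairs of R1 arrays with an SD of 0.234 to 0.442. R1 replicates 1 and 2 were the closest pair (0.234), and R1 replicate 3 stood apart from both, with lower signals for macrophage, embryonic globin and several heart muscle genes. Among the 3F arrays, replicate 1 was the farthest from the others. Its SD was 0.668 from replicate 2 and 0.702 from replicate 3, against 0.514 between replicates 2 and 3. Leaving out R1 replicate 3 raised the count of called genes to 360, leaving out 3F replicate 2 gave 512 and leaving out 3F replicate 3 gave 340. Without R1 replicate 1, or without R1 replicate 2, the count was 115. The count without 3F replicate 1 was also within the range of 115 to 512. When only the 6 compared arrays were fitted, so that the spread came from them alone, 10 genes were called: Adgre1, Bcat2, Gbp2b, Ppbp and Trap1a were lower and Ang, Galc, Rpgrip1, Slc1a5 and Slc4a1 higher. Of the 185 genes, 72 had groups that did not overlap and kept their call with each of the 6 arrays left out in turn, 20 of them higher and 52 lower. A 3' minus 5' index of the Actb and Gapdh control probe sets, a measure of RNA integrity in which a higher value means fewer full-length transcripts, was 1.94 ± 0.205 in R1 and 1.55 ± 0.229 in 3F (SD, n = 3). Its part in the calls was not tested beyond a fit with the index as a covariate, which called 255 genes.

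Macrophage and myeloid genes made up the most populated block of called genes. Of 40 measured members of the macrophage and myeloid list, 18 were lower in 3F, 0 were higher, and 22 did not pass the test, against 0.786% lower over all genes. The median difference over the 40 members was -1.66, against -0.04 over all genes. The mean log2 signal over the 40 genes was 8.49, 8.74 and 7.06 in R1 replicates 1, 2 and 3, and 6.74, 6.94 and 6.19 in the 3F replicates. The groups did not overlap on this mean, although R1 replicate 3 was much closer to the highest 3F array than to the other R1 arrays. In embryoid bodies measured in bulk, fewer macrophages and less RNA of these genes per macrophage cannot be told apart.

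The pan-leukocyte gene Ptprc, which encodes CD45, had a log2 signal of 8.22, 8.79 and 5.94 in the R1 arrays and of 4.17, 5.00 and 4.13 in the 3F arrays. All 3 R1 arrays lay above all 3F arrays, with R1 replicate 3 between the other R1 arrays and 3F. The difference was -3.22 ± 0.45 (SE, limma adjusted p = 0.000187). A second, dim probe set of Ptprc had means of 4.36 in R1 and 4.40 in 3F. Adgre1, which encodes the macrophage surface protein F4/80, had signals of 9.74, 9.40 and 8.82 in R1 and 6.84, 6.67 and 6.46 in 3F. Here the arrays of each line lay close together and the gap between the lines was wide, and Adgre1 was the 1 macrophage gene that was also called from the 6 arrays alone (limma adjusted p = 0.0194). In the fit to all arrays it was lower by a log2 difference of -2.66 ± 0.30 (limma adjusted p = 1.61e-05). Mpeg1, the pore-forming perforin-2 of phagocytes, read 9.94, 10.37 and 7.31 in R1 and 6.46, 6.78 and 5.98 in 3F. Its difference was -2.80 ± 0.52 (limma adjusted p = 0.00331). Coro1a, an actin-binding protein of leukocytes, read 9.71, 9.60 and 7.75 in R1 and 6.25, 6.86 and 5.56 in 3F. Neither gene had an R1 array as low as any 3F array, and the difference of Coro1a was -2.80 ± 0.46 (limma adjusted p = 0.00116).

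Of the complement C1q chains, C1qc and C1qb were called and C1qa was not. C1qc, a chain of complement C1q, read 8.64, 9.10 and 5.94 in R1 and 5.45, 5.73 and 5.01 in 3F, with a difference of -2.50 ± 0.45 (limma adjusted p = 0.00257). The groups were separated, but R1 replicate 3 was only just above the highest 3F array. C1qb, another chain of the same protein, read 9.75, 10.32 and 5.93 in R1 and 6.17, 5.86 and 4.48 in 3F, and its difference was -3.16 ± 0.65 (limma adjusted p = 0.00801). In this gene R1 replicate 3 fell within the 3F range. The call of C1qb was lost without R1 replicate 1 (limma adjusted p = 0.0803) and without R1 replicate 2 (0.0871). C1qa, the remaining chain, had a difference of -1.44 and did not pass (limma adjusted p = 0.139). Fcer1g, the signalling chain shared by Fc receptors, was lower by -2.02 ± 0.34 (limma adjusted p = 0.0016), and Tyrobp, the adaptor DAP12, by -2.37 ± 0.48 (limma adjusted p = 0.00744). The Tyrobp call did not hold without R1 replicate 1 (limma adjusted p = 0.0702) or without R1 replicate 2 (0.0848). Cd14, the lipopolysaccharide co-receptor, was lower by -2.32 ± 0.37 (limma adjusted p = 0.000807). Ncf4, a subunit of the phagocyte NADPH oxidase, was lower by -2.11 ± 0.34 (limma adjusted p = 0.000937), and Cybb, its membrane subunit, by -1.95 ± 0.39 (limma adjusted p = 0.00693). The Cybb call was lost without R1 replicate 1 (limma adjusted p = 0.0583) or R1 replicate 2 (0.0787).

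**Figure D2:**
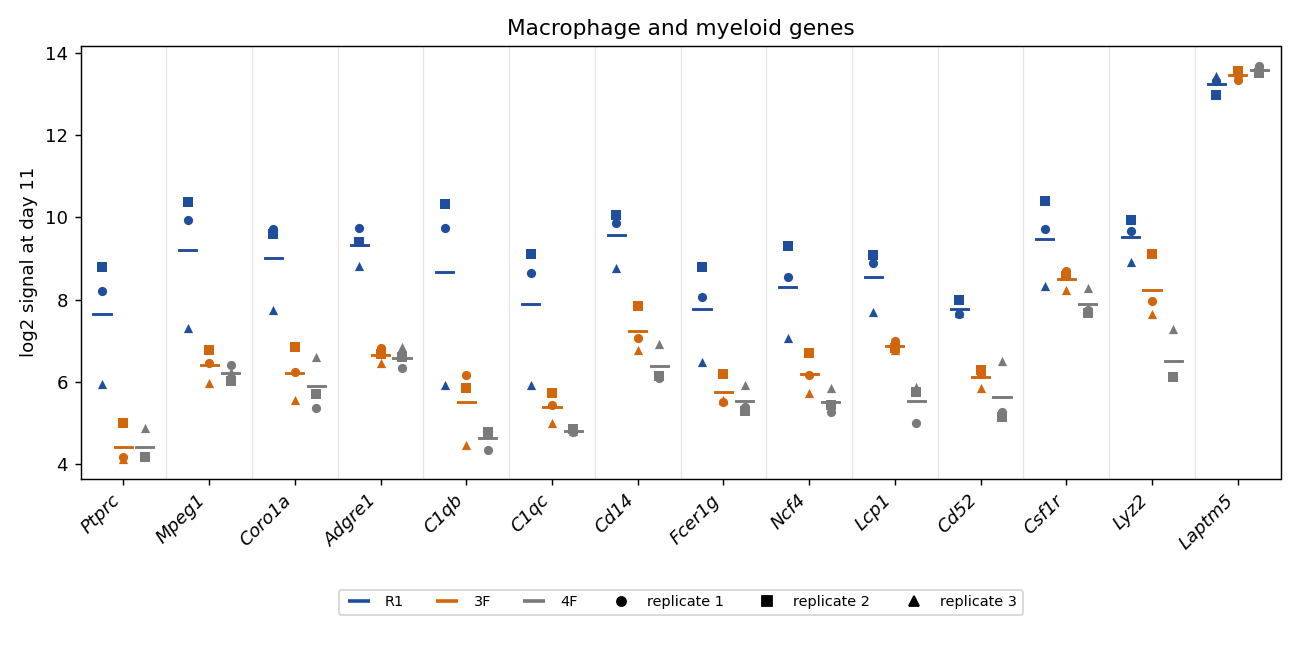
Log2 signal at day 11 (vertical axis) of 14 genes of the macrophage and myeloid list in R1, 3F and 4F embryoid bodies, with 1 point per array, the replicate given by the marker shape, and a bar at the mean of 3 arrays. R1 replicate 3 (triangles) is the lowest R1 array in 12 of the 14 genes, and R1 and 3F overlap in C1qb, Csf1r, Lyz2 and Laptm5.

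Of the 18 lower genes, 10 kept their call with each array left out in turn: Ptprc, Mpeg1, Coro1a, Adgre1, C1qc, Cd14, Fcer1g, Ncf4, Lcp1 and Cd52. The call count was 10 without R1 replicate 1 and 10 without R1 replicate 2, but 25 without R1 replicate 3 and 22 without 3F replicate 2. Fitted to the 6 arrays alone it was 1, and with the replicate number as a block in those 6 arrays it was 14. Ctss, which encodes cathepsin S, was the call closest to the threshold (limma adjusted p = 0.0484), and it was lost with the replicate number as a block over all arrays (0.0504) but not with the block in the 6 compared arrays (0.0423). The member that is known as the master regulator of the myeloid lineage, Spi1 (PU.1), read 7.42, 7.73 and 6.77 in R1 and 6.65, 6.44 and 6.42 in 3F. Its arrays did not overlap and its difference of -0.80 ± 0.16 had a limma adjusted p of 0.00751, but it was under 2-fold and was not called. Csf1r, the growth factor receptor of macrophages, had a difference of -0.98 ± 0.31 (limma adjusted p = 0.0938) on its representative probe set, and another of its probe sets had -2.13 (limma adjusted p = 0.013 over all probe sets). Members whose differences were near or above 0 included Trem2, Folr2, Itgam, Fcgr1, Cd163 and Laptm5. The Cd163 and Itgam probe sets were dim, with means of 3.72 in R1 for Cd163 and 4.10 for Itgam, while Laptm5 was bright in both groups, at 13.24 and 13.47.

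Promoters of 3 of these genes are shown because they hold short words known from blood cell enhancers and belong to genes called lower. The sequences are RefSeq's, build GRCm38.p6, and cover the 250 bases before the annotated start on the strand of the gene. Capitals mark GAGGAAGT, a word with the core bound by PU.1, or its reverse complement, in C1qc (chr4:136892915-136893164, minus strand) and Pf4 (chr5:90772185-90772434, plus strand), and AGATAA, a word bound by GATA factors, or its reverse complement, in Mpeg1 (chr19:12460520-12460769, plus strand).
C1qc: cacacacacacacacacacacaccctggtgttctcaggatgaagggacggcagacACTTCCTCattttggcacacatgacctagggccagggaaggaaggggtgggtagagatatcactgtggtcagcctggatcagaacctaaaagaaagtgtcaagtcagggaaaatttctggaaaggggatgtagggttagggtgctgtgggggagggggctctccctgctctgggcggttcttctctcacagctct
Pf4: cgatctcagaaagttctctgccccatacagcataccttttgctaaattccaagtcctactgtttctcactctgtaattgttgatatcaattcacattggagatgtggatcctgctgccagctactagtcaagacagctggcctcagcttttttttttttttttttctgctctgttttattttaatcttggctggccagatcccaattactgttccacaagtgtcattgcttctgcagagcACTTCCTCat
Mpeg1: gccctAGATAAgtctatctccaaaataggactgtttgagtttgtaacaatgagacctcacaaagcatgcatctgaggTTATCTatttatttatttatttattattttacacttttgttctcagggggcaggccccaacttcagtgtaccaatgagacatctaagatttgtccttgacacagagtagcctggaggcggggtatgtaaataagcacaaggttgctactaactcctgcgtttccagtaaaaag
GAGGAAGT occurred on either strand in 2 of the 13 lower macrophage genes that have an entry in the promoter table, and in 755 of 27025 genes in all (2.79%). AGATAA occurred in 3 of the 13, namely Cybb, Mpeg1 and Ptprc, and in 3090 of 27025 genes (11.4%). Over all 29 members of the macrophage list that have an entry, GAGGAAGT occurred in 2 (6.90%) and AGATAA in 3 (10.3%). Among 18 erythroid genes with an entry, GAGGAAGT occurred in 0 and AGATAA in 7 (38.9%). A match is a description of the letters, and binding was not measured.

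No macrophage gene passed the test between the lines at earlier days. Of the 40 members, 0 were called in either direction between 3F and R1 at day 0 and 0 at day 5, where 3.09% of all genes (2.21% higher, 0.879% lower) and 0.374% (0.220% higher, 0.154% lower) were called, and the median differences were 0.03 and -0.04. From day 5 to day 11, 27 of the 40 rose and 0 fell in R1 embryoid bodies, where 7.10% of all genes rose and 4.53% fell. In 3F 3 rose and 1 fell, where 6.16% of all genes rose and 10.8% fell. The 3 that rose in 3F were Lyz1, Lyz2, which both encode lysozyme, and Cd14, while Apoe fell. Ptprc went from 4.48 ± 0.10 to 7.65 ± 1.50 in R1 (SD, n = 3) and from 4.24 ± 0.20 to 4.43 ± 0.49 in 3F. Adgre1 went from 6.30 ± 0.21 to 9.32 ± 0.46 in R1 and from 6.13 ± 0.29 to 6.66 ± 0.19 in 3F. The change from day 0 to day 11 itself differed between the lines for 12 of the 40 genes, all with a lower change in 3F, against 1.22% of all genes with a lower and 0.275% with a higher change. In 4F embryoid bodies, 26 of the 40 were lower and 0 higher than in the same R1 arrays at day 11, against 5.92% lower and 2.39% higher (8.31% in all) over all genes, and the 4F means over the list were 6.04, 6.04 and 6.49. Both iPS comparisons share the R1 arrays, so their counts are not independent. The 3' minus 5' index was higher in 4F at day 11, at 2.69 ± 0.231, than in R1 (1.94) or 3F (1.55). Its part in the 4F counts, here and for the lists below, was not tested. Between the iPS lines, 3 of the 40 were lower in 4F than in 3F, against 4.91% of all genes.

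Other genes of blood cells were among the largest falls. Plek, the platelet and leukocyte protein pleckstrin, read 9.27, 9.34 and 7.43 in R1 and 5.79, 6.12 and 5.36 in 3F. The lines did not overlap, and the difference was -2.92 ± 0.39 (limma adjusted p = 0.000113). Adamdec1, a metalloprotease-like protein of macrophages and dendritic cells, read 5.87, 6.48 and 7.62 in R1 and 3.71, 4.11 and 3.97 in 3F. Unlike the macrophage genes above, it was highest in R1 replicate 3, and its difference was -2.73 ± 0.24 (limma adjusted p = 5.11e-07). Ccl3, a chemokine released by macrophages, was likewise highest in R1 replicate 3, at 7.93, and was lower in 3F by -2.21 ± 0.35 (limma adjusted p = 0.000782). Named after its value was seen, the myeloid transcription factor Irf8 was even across the R1 arrays, at 9.24, 9.41 and 9.24, and lower in 3F, at 6.71, 7.86 and 8.01. Its difference was -1.77 ± 0.25 (limma adjusted p = 0.000208).

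Among 14 measured megakaryocyte and platelet genes, 3 were lower in 3F and 1 was higher, against 0.786% and 0.231% of all genes. Ppbp, the platelet basic protein, read 7.93, 7.72 and 7.20 in R1 and 4.60, 4.98 and 4.97 in 3F. Every R1 array exceeded every 3F array, and the difference was -2.77 ± 0.35 (limma adjusted p = 6.38e-05). The undifferentiated cells differed the other way in this gene, with 9.75 in 3F and 8.07 in R1 at day 0 (difference 1.68, limma adjusted p = 0.00593). Clec1b, the platelet receptor CLEC-2, read 8.03, 7.56 and 5.84 in R1 and 4.36, 5.20 and 4.50 in 3F. The groups were again apart, with a difference of -2.46 ± 0.33 (limma adjusted p = 0.000108). Pf4, platelet factor 4, which is also in the macrophage list, read 11.36, 11.42 and 8.82 in R1 and 8.15, 8.49 and 5.94 in 3F. Its difference was -3.00 ± 0.63 (limma adjusted p = 0.00967), a call lost without R1 replicate 1 (0.086) or R1 replicate 2 (0.0918). Itgb3, the beta 3 integrin found on platelets and on many other cells, went in the other direction, with 7.24, 6.84 and 7.30 in R1 and 8.56, 8.09 and 9.50 in 3F. The 3F arrays were all higher, by 1.59 ± 0.26 (limma adjusted p = 0.00104). Itga2b, its partner in the platelet fibrinogen receptor, had a difference of -0.66 and did not pass (limma adjusted p = 0.189).

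Red cell genes did not follow the macrophage genes. Of 25 measured erythroid genes, 1 was higher in 3F and 1 was lower, against 0.231% and 0.786% of all genes, and the median difference was 0.10. The higher one was Slc4a1, which encodes band 3, the anion exchanger of the red cell membrane. It read 6.19, 6.00 and 5.48 in R1 and 8.69, 8.64 and 9.08 in 3F. The 3F arrays were tightly grouped far above R1, with a difference of 2.91 ± 0.16 (limma adjusted p = 9.53e-11). A second probe set of the gene gave 3.41 (limma adjusted p = 7.1e-06), and the last, dim one gave 0.30. Slc4a1 did not pass the test between the lines at day 0 (difference -0.08) or day 5 (0.33). It rose by 2.96 from day 5 to day 11 in 3F (limma adjusted p = 2.26e-11), while the R1 change was 0.38 (0.0921), and the 4F mean at day 11 was 5.71. The difference in the change from day 0 to day 11 was 3.00 ± 0.23 (limma adjusted p = 6.33e-08).

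The lower erythroid gene was Hemgn, a nuclear protein of blood precursors, at 6.64, 6.25 and 4.02 in R1 and 3.91, 3.98 and 4.02 in 3F. In it R1 replicate 3 was level with the 3F arrays, and the call (difference -1.67 ± 0.37, limma adjusted p = 0.0144) was lost without R1 replicate 1 (0.134), R1 replicate 2 (0.134) or 3F replicate 1 (0.0587). The embryonic beta globin Hbb-y was bright in 5 of the 6 arrays, at 13.73, 12.97 and 9.44 in R1 and 13.99, 14.35 and 14.29 in 3F. The groups did not overlap, but R1 replicate 3 alone set most of the mean difference of 2.16 ± 0.89, which did not pass (limma adjusted p = 0.197). The embryonic alpha globin Hba-x had a difference of 1.44 ± 0.57 and did not pass either (limma adjusted p = 0.177). Hbb-bh1, another embryonic beta globin, was at 13.87, 13.19 and 8.37 in R1 and 12.67, 13.29 and 10.39 in 3F, with overlapping arrays. The erythroid regulators Gata1 and Klf1 had differences of 0.02, with a 95% interval of -0.58 to 0.62, and -0.14, with an interval of -0.73 to 0.44. Alas2, the first enzyme of heme synthesis in red cells, read 5.79, 5.88 and 5.01 in R1 and 6.11, 7.15 and 6.53 in 3F, a difference of 1.04 that narrowly missed the threshold (limma adjusted p = 0.0506).

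**Figure D3:**
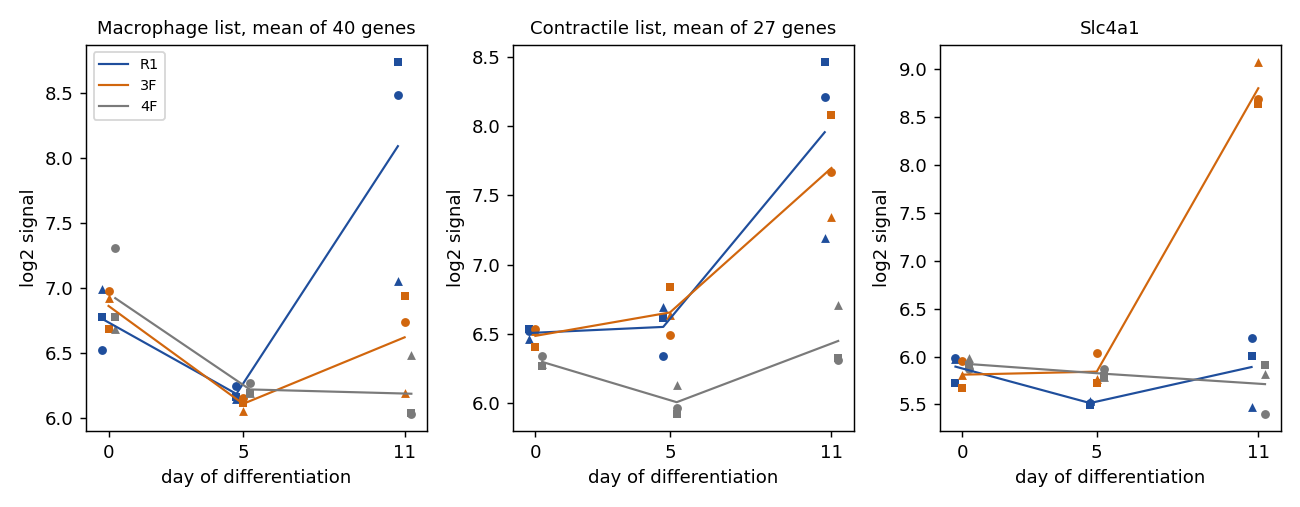
Log2 signal (vertical axis) against the day of differentiation (horizontal axis, days 0, 5 and 11) for the mean of 40 macrophage and myeloid genes, the mean of 27 contractile genes of heart muscle, and Slc4a1. Points are arrays (circle, square and triangle for replicates 1, 2 and 3, with the lines offset sideways), lines join group means, and the 3 R1 arrays at day 11 span 7.06 to 8.74 in the macrophage panel.

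Heart muscle genes were expressed in both kinds of embryoid body at day 11, and 0 of 27 contractile genes, 0 of 20 cardiac transcription factors and 0 of 17 genes of calcium handling and natriuretic peptides were called between 3F and R1. At an unadjusted limma p under 0.05 the counts were 4, 4 and 3, against 3512 of all 18193 genes. Tnnt2, cardiac troponin T, read 10.27, 10.72 and 10.62 in R1, and 3F had a mean of 10.47 ± 0.43 (SD, n = 3). The arrays overlapped, and the difference was -0.07 with a 95% interval of -1.43 to 1.29, which leaves room for a change of more than 2-fold in either direction. Tnni1, the slow skeletal troponin I that embryonic heart uses, read 11.43, 11.98 and 10.80 in R1 and 11.80, 12.70 and 11.45 in 3F, also overlapping (difference 0.58, 95% interval -0.36 to 1.51). Among the transcription factors, Hand2, a regulator of the heart field, read 11.64, 11.78 and 11.72 in R1 and 11.76, 11.69 and 12.24 in 3F. Tbx20, a T-box factor of the heart, read 10.25, 9.94 and 11.07 in R1 and 10.37, 10.19 and 11.27 in 3F. Both overlapped, with differences of 0.18 and 0.19. Isl1, a marker of cardiac progenitors of the second heart field, had the lowest value among the transcription factors at -0.95 ± 0.37 (limma adjusted p = 0.175). Myocd, myocardin, a coactivator of heart and smooth muscle genes, read 6.69, 6.16 and 6.16 in R1 and 5.25, 5.68 and 5.58 in 3F. It was the 1 of the 20 factors whose adjusted p was under the threshold, its arrays did not overlap, and its difference of -0.84 ± 0.16 (limma adjusted p = 0.00514) was under 2-fold and not called. Its other probe set gave 0.13, and with the replicate number as a block in the 6 compared arrays its limma adjusted p was 0.375. The lowest 95% bounds of Nkx2-5 and Gata4, both core cardiac factors, were -0.28 and -1.10, and their highest bounds 0.74 and 0.59.

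**Figure D4:**
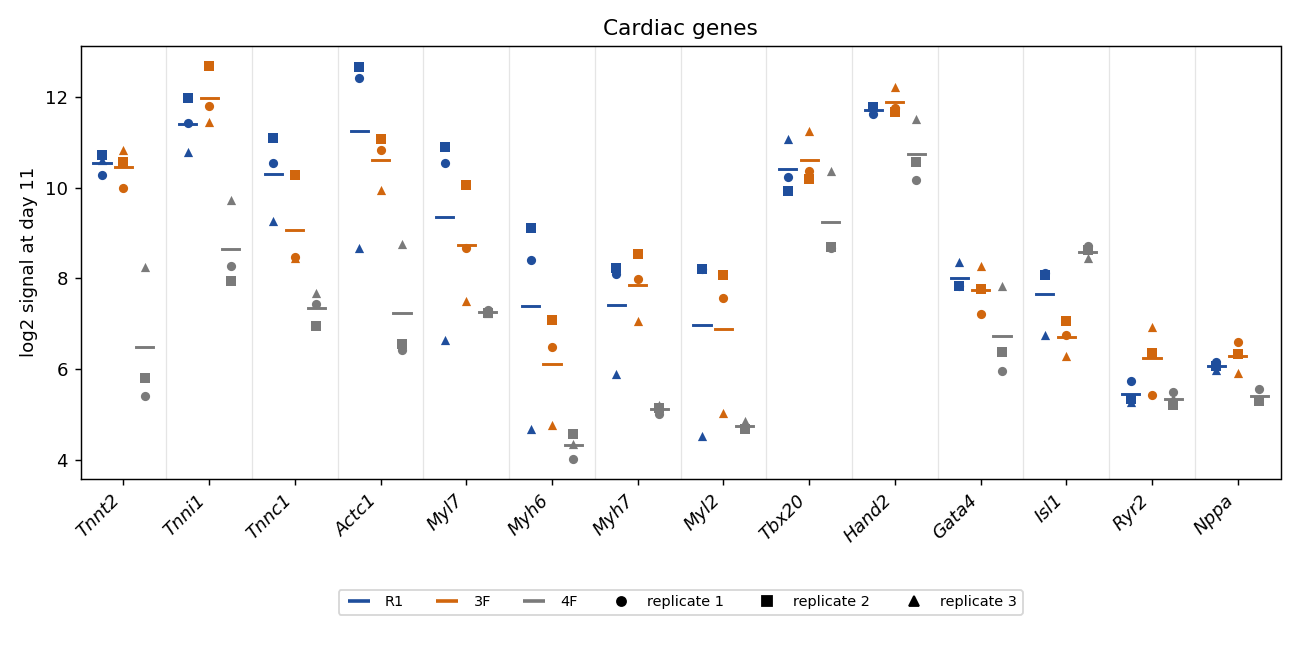
Log2 signal at day 11 (vertical axis) of 14 cardiac genes in R1, 3F and 4F embryoid bodies, with 1 point per array, the replicate given by the marker shape, and a bar at the mean of 3 arrays. R1 and 3F arrays overlap in all 14 genes, and R1 replicate 3 is far below replicates 1 and 2 in Actc1, Myl7, Myh6 and Myl2.

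Leaving out R1 replicate 3 changed the result for the contractile list. Myh6, the alpha myosin heavy chain of heart muscle, read 8.40, 9.11 and 4.68 in R1 and 6.49, 7.08 and 4.76 in 3F. In both lines replicate 3 was by far the lowest, and the difference was -1.29 ± 0.72 (limma adjusted p = 0.328). Actc1, cardiac actin, read 12.42, 12.68 and 8.68 in R1 and 10.83, 11.08 and 9.96 in 3F, with R1 replicate 3 below all 3F arrays. Without R1 replicate 3, 360 of all genes were called, 48 higher and 312 lower, and 6 contractile genes were among the lower ones: Myh6 (-2.65), Csrp3 (-2.23), Myl7 (-1.98), Myl4 (-1.86), Tnni3 (-1.07) and Nebl (-1.01). Without 3F replicate 2, 512 of all genes were called, 83 higher and 429 lower, and 3 contractile genes were lower, namely Tnnc1 (-1.84), Csrp3 (-1.72) and Myl4 (-1.60). Over the 27 genes the median difference with all arrays was -0.19, and 21 of the 27 values were below 0. The mean log2 signal over the list was 8.21, 8.46 and 7.20 in R1 and 7.67, 8.08 and 7.35 in 3F. The 4F list means were below both, at 6.31, 6.33 and 6.71, and 15 of the 27 genes were called lower in 4F than in R1, against 5.92% of all genes.

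Most genes of the undifferentiated state were lower at day 11 than at day 0 in both lines. Not all were dim by then: Klf4 had means of 9.29 in R1 and 9.78 in 3F. Of 24 pluripotency genes, 23 fell and 0 rose from day 0 to day 11 in R1, where 12.2% of all genes fell and 11.4% rose, and 23 fell and 0 rose in 3F, where 16.0% fell and 7.55% rose. Between the lines at day 11, 2 were lower in 3F and 0 higher, against 0.786% and 0.231% of all genes, with a median of -0.24. Dppa2, a chromatin protein of pluripotent and germ cells, read 8.23, 7.75 and 6.64 in R1 and 5.44, 5.79 and 5.16 in 3F. The arrays did not overlap, and the difference was -2.07 ± 0.39 (limma adjusted p = 0.00444), although both lines had the same mean of 13.32 at day 0. Dppa4, its partner protein, was lower by -1.09 ± 0.29 (limma adjusted p = 0.0437). That call was lost without R1 replicate 1 (0.221), without R1 replicate 2 (0.288), without 3F replicate 1 (0.25) and after median centring (0.0615) or cyclic loess (0.0847). Zfp42, also known as Rex1, read 8.24, 7.80 and 7.03 in R1 and 6.23, 6.72 and 5.12 in 3F, and its difference of -1.66 ± 0.47 missed the threshold (limma adjusted p = 0.0638). It passed with the replicate number as a block (limma adjusted p = 0.00843), as did Dppa5a (difference -1.45, 0.107 without and 0.0428 with the block). With the block in the 6 compared arrays alone, Zfp42 passed (limma adjusted p = 0.0423) and Dppa5a did not (0.164). Pou5f1, the core pluripotency factor Oct4, read 8.09, 7.81 and 6.14 in R1 and 7.23, 7.70 and 7.03 in 3F, with a difference of -0.02. In 4F Pou5f1 was at 10.14, 10.50 and 9.08. The other core factors, Sox2 and Nanog, had differences between 3F and R1 of -1.30 (limma adjusted p = 0.119) and -0.82 (0.348). Their arrays overlapped and neither passed.

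Trap1a, a gene of trophoblast and tumour cells, read 9.14, 8.43 and 8.86 in R1 and 5.94, 6.09 and 5.53 in 3F. The difference of -2.96 ± 0.35 (limma adjusted p = 2.28e-05) was far wider than the spread within either line. Mageb16, a gene of the germ cell MAGE family, read 8.21, 7.09 and 7.75 in R1 and 4.73, 5.61 and 4.24 in 3F. The groups were separated, by -2.83 ± 0.45 (limma adjusted p = 0.000773). In 4F the same genes were at 10.96, 11.10 and 10.35 for Trap1a and at 8.97, 9.36 and 9.24 for Mageb16, above both other lines. Of 12 trophoblast list genes, 3 were lower in 3F and 0 higher, against 0.786% and 0.231% of all genes. Rhox6, a homeobox gene of placenta and germ cells, read 10.01, 9.29 and 10.41 in R1 and 7.63, 8.42 and 6.45 in 3F. Its neighbour in the reproductive homeobox family, Rhox9, read 8.93, 9.08 and 9.49 in R1 and 7.86, 8.15 and 6.39 in 3F. Neither overlapped between the lines, with differences of -2.40 ± 0.36 (limma adjusted p = 0.000367) and -1.70 ± 0.30 (limma adjusted p = 0.00221). Both were lower at day 0 too, by -2.76 and -2.34, and did not pass at day 5. Tfap2c, the factor AP-2 gamma of trophoblast and germ cells, was lower by -1.26 ± 0.31 (limma adjusted p = 0.0329), a call lost without R1 replicate 1 (0.219), R1 replicate 2 (0.112) or 3F replicate 1 (0.106). Of 14 germ line genes, 1 was lower and 0 higher, against the same 0.786% and 0.231%. It was Tex19.1, which represses retrotransposons in germ cells and placenta. It read 7.48, 6.94 and 6.62 in R1 and 5.32, 5.70 and 5.54 in 3F, without overlap, and the difference was -1.50 ± 0.27 (limma adjusted p = 0.00257). Cdx2, Elf5 and Eomes, which define trophoblast stem cells, had differences of -0.45, -0.13 and 0.33 and did not pass.

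**Figure D5:**
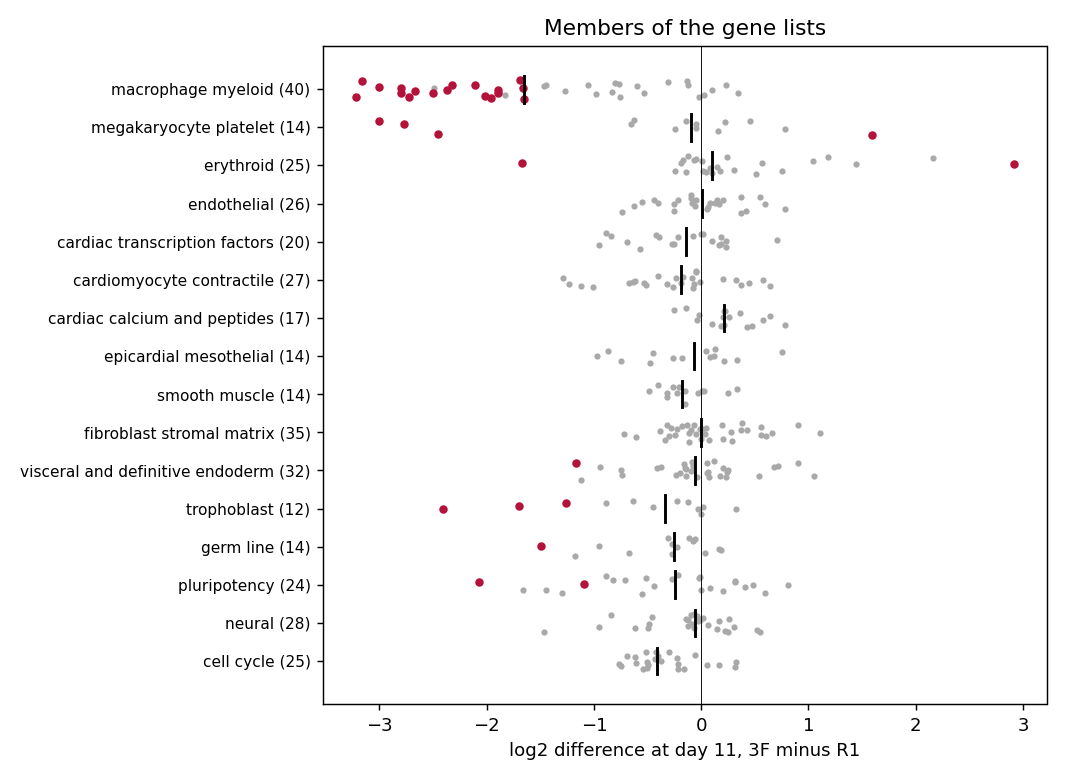
Log2 difference at day 11, 3F minus R1 (horizontal axis), of every measured member of 16 gene lists (rows, with the number of members in brackets); red points were called, grey points were not, and black bars are list medians. Called genes are concentrated among the 40 macrophage and myeloid genes, whose median is -1.66, and the cardiac, endothelial, smooth muscle, fibroblast and neural rows hold 0.

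The remaining tissue lists held few calls or 0. None of 26 endothelial, 14 smooth muscle, 14 epicardial and mesothelial, 35 fibroblast and matrix, 28 neural or 25 cell cycle genes was called by limma, and at an unadjusted p under 0.05 the counts were 2, 1, 3, 0, 3 and 11, against 3512 of all 18193 genes. The 11 of 25 cell cycle genes are the largest share among these lists, and the median of that list was -0.41, with 21 of 25 values below 0. The fibroblast list, which also holds markers that feeder cells express, had a median difference of -0.00 between the lines. Col9a1, a chain of cartilage collagen type IX, was the 1 called gene of 20 cartilage and bone genes, against 0.786% lower and 0.231% higher over all genes. Other members lay on both sides of 0, such as Matn1 at 0.49 (limma adjusted p = 0.0153, under 2-fold) and Alpl at -0.16 (0.768). Col9a1 read 11.01, 10.82 and 9.94 in R1 and 7.14, 9.02 and 7.80 in 3F, without overlap, and was lower by -2.60 ± 0.44 (limma adjusted p = 0.00146). At day 5 the lines had means of 8.05 and 8.14. From day 5 to day 11 it rose by 2.54 in R1 (limma adjusted p = 0.000135), and its 3F change was -0.15 (0.818). Alb, serum albumin, was the 1 called gene of 32 endoderm genes, against the same 0.786% lower and 0.231% higher over all genes. Its difference was -1.17 ± 0.19 (limma adjusted p = 0.000957), with dim signals of 6.14 ± 0.50 in R1 and 4.98 ± 0.23 in 3F (SD, n = 3). Without R1 replicate 3 its difference was -0.92, under 2-fold.

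Some of the widest differences separated the lines at all days. In the same direction at each of days 0, 5 and 11, 15 genes were called higher and 9 lower in 3F. Gbp2b, an interferon-inducible guanylate binding protein, had the largest fall at day 11, reading 8.22, 8.48 and 8.77 in R1 and 4.82, 4.19 and 4.36 in 3F. The 3F arrays were near the floor of the array signal throughout, and the difference was -4.03 ± 0.60 at day 11 (limma adjusted p = 0.000367), after -5.42 at day 0 and -3.81 at day 5. Bcat2, the mitochondrial transaminase of branched-chain amino acids, read 8.26, 8.42 and 8.33 in R1 and 6.03, 5.65 and 5.52 in 3F. It was lower by -3.95 at day 0, -2.70 at day 5 and -2.61 ± 0.26 at day 11 (limma adjusted p = 3.38e-06). Fmr1nb, a testis gene beside Fmr1, was lower by -5.09 at day 0, -2.46 at day 5 and -1.68 ± 0.24 at day 11 (limma adjusted p = 0.000251). The difference of Fmr1nb narrowed as R1 fell from 11.25 to 7.26 while 3F stayed between 5.58 and 6.16.

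Among the genes higher at all days, Rpgrip1, a ciliary protein of photoreceptors, read 7.57, 7.81 and 7.28 in R1 and 10.11, 10.02 and 10.47 in 3F at day 11. The lines were well apart, by 4.21 at day 0, 2.97 at day 5 and 2.65 ± 0.32 at day 11 (limma adjusted p = 4.23e-05). The other 3 probe sets of Rpgrip1 were dim and had differences of 0.29, 0.18 and -0.15. Slc1a5, the glutamine transporter ASCT2, read 5.94, 5.64 and 5.69 in R1 and 7.46, 7.75 and 7.90 in 3F. It was higher at each day, by 2.29, 2.80 and 1.95 ± 0.15 (limma adjusted p = 3.36e-08 at day 11), while its level fell from day 5 to day 11 in both lines. Zfp874a, a zinc finger protein, was higher by 2.40, 1.73 and 2.16 ± 0.28 (limma adjusted p = 8.86e-05 at day 11).

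Ang and Galc had a difference above 0 at day 0 that was wider at each later day. Ang, angiogenin, a secreted ribonuclease, read 5.19, 5.14 and 5.12 in R1 and 8.11, 9.21 and 8.93 in 3F. The R1 signal was flat and low at all days, and the difference went from 1.24 at day 0 to 2.16 at day 5 and 3.60 ± 0.19 at day 11 (limma adjusted p = 8.48e-11). Ang belongs to a family of near-identical genes, and its representative probe set can read other members; a second probe set gave 2.80 and the last, dim one 0.18. Galc, a lysosomal enzyme that breaks down galactosylceramide, read 5.30, 5.24 and 5.32 in R1 and 7.96, 8.40 and 8.18 in 3F. Its difference was 0.98 at day 0, under 2-fold, 1.96 at day 5 and 2.89 ± 0.18 at day 11 (limma adjusted p = 6.49e-10), and its other 2 probe sets were dim and gave 0.24 and -0.06. Mid1, a ubiquitin ligase of microtubules, was higher by 1.23 at day 0, 1.65 at day 5 and 2.27 ± 0.37 at day 11 (limma adjusted p = 0.000887), with 4F also high at 8.86, 8.21 and 7.62. Zfp429, another zinc finger protein, was called higher at day 0 too (limma adjusted p = 0.00134), and its difference was 2.61 at day 5 and 2.30 ± 0.28 at day 11 (limma adjusted p = 3.7e-05). For neither Mid1 nor Zfp429 did the change from day 0 to day 11 pass the test of a difference between the lines (limma adjusted p = 0.257 and 0.307).

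Further genes were close between the lines at day 0 and higher in 3F at day 11. The probe set named for Trbv13-2, a variable segment of the T cell receptor beta locus, read 4.83, 4.85 and 4.96 in R1 and 8.91, 9.92 and 6.61 in 3F. All 3F arrays were higher but they spread widely, and the difference was 3.60 ± 0.46 (limma adjusted p = 6.38e-05). It was 4.74 ± 0.16 in 3F at day 0 and 4.99 ± 0.20 at day 5, and 5.13, 5.09 and 4.57 in 4F at day 11. Akr1c19, an aldo-keto reductase, read 5.33, 5.25 and 4.86 in R1 and 8.09, 8.48 and 5.63 in 3F. In it, as in the T cell receptor probe set, 3F replicate 3 was the lowest 3F array, and the difference was 2.25 ± 0.44 (limma adjusted p = 0.00499). Col4a6, the alpha 6 chain of basement membrane collagen IV, read 6.27, 6.19 and 6.29 in R1 and 8.84, 7.77 and 7.97 in 3F. Its arrays were far apart, with a difference of 1.95 ± 0.19 (limma adjusted p = 2.32e-06), and its second probe set gave 3.11.

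Of the 185 genes called at day 11, 32 were called in the same direction at day 0 and 36 at day 5. The comparisons between the lines called 562 genes at day 0, of which 402 were higher and 160 lower in 3F, and 68 at day 5. After median centring the day 0 split was 308 higher and 230 lower. The day 0 count ranged from 193 without R1 replicate 2 to 1179 without R1 replicate 1, with 304 without R1 replicate 3, 344 without 3F replicate 1 and 204 without 3F replicate 3, and the day 5 count was 39 without R1 replicate 2 and 41 without 3F replicate 3. The change from day 0 to day 11 differed between the lines at 272 genes (1.50%), 50 with a higher and 222 with a lower change in 3F, and 66 of the day 11 calls were among them. That count depended on single arrays: it was 1264 without 3F replicate 3 of day 11 and 1054 without R1 replicate 1 of day 0, 418 without R1 replicate 3 of day 11, and between 101 and 150 without 3F replicate 1 of either day, 3F replicate 3 of day 0, R1 replicates 2 or 3 of day 0, or R1 replicates 1 or 2 of day 11. After median centring the 221 genes of that test were 91 higher and 130 lower, a share of 41.2% higher instead of 18.4%, and after quantile normalization the 190 genes were 57 higher and 133 lower. The highest 2 differences in change belonged to genes that were bright in undifferentiated R1 cells and dim in the other groups of these lines. Dpys, dihydropyrimidinase, was at 9.50 ± 0.28 in R1 and 4.37 ± 0.34 in 3F at day 0 and at 5.11 ± 0.29 and 4.87 ± 0.14 at day 11 (SD, n = 3). The difference in change was 4.89 ± 0.39 (limma adjusted p = 1.08e-07), and the lines did not pass the test at day 11 (difference -0.23). Aass, an enzyme of lysine breakdown, gave 4.65 ± 0.52 (limma adjusted p = 2.39e-05), from 11.15 in R1 and 6.17 in 3F at day 0 to 4.58 and 4.24 at day 11. Unlike Dpys, Aass also fell in 3F, with changes of -1.92 in 3F and -6.57 in R1. At the other end were Ppbp (-4.45), Ptprc (-3.62), Plek (-3.57), C1qb (-3.54) and Mpeg1 (-3.26), all genes of blood cells. Ppbp differed from the rest in that its signal did not rise in R1, with changes of -0.46 in R1 and -4.90 in 3F. The R1 changes of Ptprc, Plek, C1qb and Mpeg1 were 2.94, 3.41, 3.83 and 2.24.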

How the data were processed

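Total RNA of 27 samples was hybridised to 1-colour expression arrays, and the values used are the authors' deposited log2 signals, made with RMA per the submitters' processing notes, whose version and settings are not given in the sources used here. Background correction and summarisation by RMA can compress the changes of dim genes. Of 45101 probe sets, 34945 carried 1 gene symbol, 932 several and 9160 none, and 64 were controls. A gene with several probe sets was read from the one whose average signal across the series was highest, which gave 18193 genes. Groups came from the labels. The labels say biological replicates and no more, so p-values measure the spread between these samples. In the main fit that spread was pooled over all 27 arrays, not taken from the 6 compared arrays alone. The small number of arrays limits the precision.

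A model with 1 mean for each of 9 groups was fitted to all 27 arrays with limma 3.58.1 in R 4.3.3 (lmFit and eBayes, residual degrees of freedom 18), and p-values were adjusted over all genes by the Benjamini-Hochberg method. Errors of differences are standard errors of this fit. An exact permutation test of 3 against 3 arrays was not used, since it cannot reach the threshold. On simulated data for the day 11 comparison with 18193 genes, the fit called 40, 47, 49 and 50 of 50 genes changed by log2 1.25, 1.5, 2 and 3, and 0 unchanged genes. In a simulated difference in change, 27, 40, 45 and 50 of 50 such genes were called, as were 5 of 17993 that had been left as they were. The simulation gave each gene the same spread in every group and drew the arrays independently. In the data, pairs of 3F arrays at day 11 differed more than pairs of any other group, with SDs of 0.514 to 0.702. The simulated counts therefore cannot give the power or the false calls of the real comparison. The main fit held no replicate term, since the labels state no pairing, so its p-values, errors and calls ignore any pairing. Replicate numbers entered only as a block in alternative fits. Same-numbered day 11 arrays deviated together from their group means (correlations 0.12, 0.49 and 0.39 for replicates 1, 2 and 3). The unlike-numbered 3F replicate 2 and R1 replicate 1 gave 0.25, so a pairing at day 11 is inferred from these data and uncertain. Same-numbered correlations were -0.01, 0.19 and 0.12 at day 0 and 0.62, -0.27 and 0.03 at day 5. A block over all 27 arrays therefore also assumes a pairing that those days did not show. Tables and plots were made with Python 3.11.15, pandas 2.3.3, numpy 2.4.6 and matplotlib 3.10.9.

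The genes named are the 10 largest differences in each direction among calls with no overlap that held with each array left out, up to 5 such members and up to 3 further members of each list described, a panel of 51 marker genes, the 5 highest and 5 lowest differences in change, and 3 genes in each direction that differed at all days. Outside this rule, Irf8, Alas2, C1qa, Cd14, Cd52, Cybb, Fcer1g, Lcp1, Ncf4, Cdx2, Elf5, Eomes, the macrophage genes with the smallest differences, those that account for a count and the germ cell genes of the closing section were chosen after their values were seen. The members and lists were chosen with earlier results of these data known. Alternatives covered scaling, dim genes, probe set choice, the variance model, the RNA index, the replicate block, the thresholds and each array left out.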

Additional observations from a re-analysis of the deposited data

Results flagged for a closer look

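The change in log2 signal from day 0 to day 11 differed between 3F and R1 at 272 genes by a test of the difference itself, the interaction of line and day in limma (adjusted p under 0.05 and at least 2-fold). The values below are differences in change, 3F minus R1, of the named genes among them, and no explanation of them was tested. Many rest on day 0 as much as on day 11.

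Blood cell genes with a lower change in 3F were Ppbp (-4.45), Ptprc (-3.62), Plek (-3.57), C1qb (-3.54), Mpeg1 (-3.26), Coro1a (-3.10), Adgre1 (-2.95), C1qc (-2.85), Adamdec1 (-2.74), Ccl3 (-2.40) and Clec1b (-2.16). The value of Ppbp came from changes of -4.90 in 3F and -0.46 in R1, without a rise in R1. Vwf, the endothelial and platelet von Willebrand factor, had -1.46. Other tissue genes with a lower change were Nefl (-3.17), a neurofilament, Col9a1 (-2.62), Tbx18 (-2.42), an epicardial factor, Hoxd13 (-2.18), Trap1a (-2.09), Emx2 (-1.66), Perp (-1.59), Fabp4 (-1.47) and Alb (-1.14). The values of Nefl went from 11.21 to 7.40 in R1 and from 12.92 to 5.93 in 3F. Tbx18 went from 5.71 to 6.46 in R1 and from 7.39 to 5.71 in 3F.

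A higher change in 3F was measured for Dpys (4.89), Aass (4.65), Trbv13-2 (3.95), Fmr1nb (3.41), Khdc3 (3.08), Slc4a1 (3.00), Ang (2.36), Rhox5 (2.04), Galc (1.91) and Col4a6 (1.75). Rhox5, a reproductive homeobox gene, went from 13.81 to 12.03 in R1 and from 10.82 to 11.07 in 3F.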

How the results depend on the processing

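Among the 43 called genes tallied below, no difference changed sign under an alternative that kept the gene and gave it 1 value. Counting all probe sets was different. A dim probe set of Rpgrip1, of Galc and of Ptprc each lay slightly on the other side of 0. The 185 genes called at day 11 became 322 with all probe sets counted, 117 with limma's treat against 1.2-fold, 113 at an adjusted p under 0.01, 451 with no minimum fold, 10 from the 6 arrays alone, 67 with the replicate block in those 6, and 115 to 512 with 1 array left out. With the replicate block over all arrays they were 196, and 184 of the 185 remained, although days 0 and 5 did not show the pairing that this block assumes. The 562 genes of day 0 became 331 with the mean of probe sets, 870 with all probe sets, 1158 with array weights, 193 with the RNA index as a covariate, 257 with treat, 260 at an adjusted p under 0.01, 1311 with no minimum fold and 193 to 1179 with 1 array left out. For the same settings except the index, the 68 genes of day 5 became 44, 144, 220, 39, 42, 118 and 39 to 91. The 272 genes of the difference in change became 416 with all probe sets, 778 with array weights, 728 with the index, 85 with treat, 80 from the compared arrays alone, 63 with the replicate block in them, 68 at an adjusted p under 0.01 and 101 to 1264 with 1 array left out. The 18 lower macrophage genes became 1 from the compared arrays alone, and 10 to 25 with 1 array left out. The 0 contractile genes became 0 to 6. The alternatives were tallied for 43 called genes, a set that leaves out some of the called genes named here. Of these 43, 33 lost their call when only the 6 compared arrays were fitted, and 14 with the replicate block in those 6. Leaving out R1 replicate 1 ended 9 of the 43 calls, and leaving out R1 replicate 2 ended 8. Every called gene named here, apart from the 10 called from the 6 arrays alone, lost its call in that fit. The replicate block over all arrays ended 1 call, that of Ctss. Median centring moved the median difference of all genes from -0.04 to 0.04. The causes of these shifts were not tested. With 3 arrays in a group and a wide spread among 3F arrays, changes near 2-fold are at the limit of what could be called.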

Other observations

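The 4 genes given here, which are known from meiosis or germ cells, were chosen because they were called lower in 3F embryoid bodies at day 11, and they show nothing about such genes as a group. Of the 14 genes of the germ line list, 1 was lower and 0 higher, against 0.786% and 0.231% of all genes. Meioc, which keeps germ cells in meiotic prophase, was at 6.62 ± 0.64 in R1 and 4.18 ± 0.53 in 3F (SD, n = 3), and its difference was -2.44 ± 0.36 (SE, limma adjusted p = 0.000367). Rbm46, an RNA-binding protein of germ cells, had a difference of -2.42 ± 0.34 (limma adjusted p = 0.000161). Rnf17, a tudor domain protein of germ cells, had -1.56 ± 0.25 (limma adjusted p = 0.000825), and was already lower at day 0 (-1.45) and day 5 (-1.55). Stag3, the cohesin subunit of meiosis, had -1.01 ± 0.25 (limma adjusted p = 0.0345), after -1.68 at day 0 and -1.79 at day 5. The 4F means at day 11 were 9.39 for Meioc and 8.22 for Rnf17, above both other lines.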
